A study of Mus musculus with 4 samples.

Results

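The 9 genes described here, Acta2, Myh11, Tagln, Cnn1, Des, Mylk, Pdgfrb, Rgs5 and Notch3, are markers of the smooth muscle cells and pericytes that wrap the blood vessels of nerve. They were taken by gene symbol from a table of 50593 mouse genes, by a rule that uses none of their values, although the group was proposed with earlier results of these data known, and each symbol was found once. RNA sequencing had been done on sciatic nerve of mice labelled as strain 129S1/SvImJ at 6 months of age, 2 mice per group by the sample labels. Both groups were heterozygous for a deletion of Hsf1, the gene of heat shock factor 1. HSF V30M TTR mice also carried the human TTR V30M transgene and lacked endogenous Ttr, and HSF WT TTR mice were the controls without these changes. The promoter of the transgene and the sex of the mice are not given in the sources used here. The table holds 1 value per gene and group, in FPKM, a count of fragments scaled to transcript length and to library depth, so no spread between mice, no error over replicates and no test of the difference between the groups can be given for any value.

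Smooth muscle cells contract when calcium and calmodulin activate myosin light chain kinase, the product of Mylk, which lets the myosin heavy chain Myh11 pull on alpha smooth muscle actin, the product of Acta2. Tagln (transgelin, also called SM22 alpha) and Cnn1 (calponin) bind the actin filaments, and Des (desmin) forms the intermediate filaments that tie the contractile units together in smooth and striated muscle. Pericytes lie on capillaries. They are recruited by endothelial PDGF-B through the receptor Pdgfrb, carry Rgs5, a regulator that dampens G protein signalling, and share with arterial smooth muscle the receptor Notch3, which receives Jagged signals from the endothelium. None of these genes belongs to mural cells alone: fibroblasts also make Pdgfrb, activated fibroblasts make Acta2 and Tagln, and skeletal muscle makes Des. In RNA of whole nerve, fewer cells of a type and less RNA per cell cannot be told apart.

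The 9 genes did not move as 1 block. In the group labelled HSF V30M TTR, Tagln and Myh11 were lower, Rgs5 and Cnn1 were higher, Notch3 was higher by a little less than the fold used here, and Acta2, Pdgfrb, Mylk and Des differed by less. With ratios taken as log2((HSF V30M TTR + 1) / (HSF WT TTR + 1)), which understates the change of low genes, 5 genes were above 0 and 4 below. The median of the 9 ratios was 0.10, beside 0.00 over all 15620 genes whose mean FPKM reached 1. A ratio over 1.5-fold in either direction was reached by 4 of the 9 genes, 2 higher and 2 lower, while 16.7% of all 15620 genes reached it, 8.22% on the higher side and 8.44% on the lower side. Where the mean FPKM had to reach 5, which leaves out Cnn1, it was 3 of 8 genes beside 13.5%. With a pseudocount of 0.1 Notch3 joined them, giving 5 of 9 beside 21.7%, and with a fold of 2 Tagln was past it alone, beside 7.92% of all genes. The genes were chosen as a group and share cells, so these counts describe them and carry no test.

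**Figure D1:**
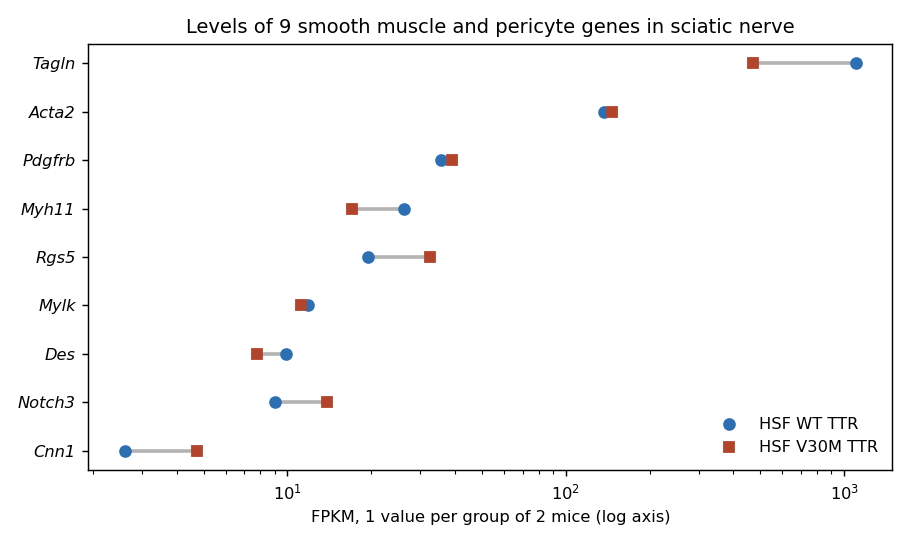
FPKM of each of the 9 genes on a log axis, 1 value per group of 2 mice, circles for HSF WT TTR and squares for HSF V30M TTR, joined by a grey line. Tagln lies highest in both groups, at 1102 and 472, and its squares and circles are the farthest apart, while those of Acta2, Pdgfrb and Mylk nearly coincide.

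The order of the levels was largely kept. FPKM is scaled by transcript length, so levels can be set side by side between genes, but only roughly. The same fragments give a different FPKM depending on the transcript they are assigned to, up to 39.3-fold apart for Mylk and 17.5-fold for Notch3. In HSF WT TTR the order from the highest was Tagln, Acta2, Pdgfrb, Myh11, Rgs5, Mylk, Des, Notch3 and Cnn1. In HSF V30M TTR the top 3 and the last gene were the same, but Rgs5 stood above Myh11 and Notch3 above Mylk and Des. Without values per mouse, it cannot be said which neighbours in this order differ beyond their spread. Set among those 15620 genes, Tagln exceeded 98.3% of them in HSF V30M TTR and 99.0% in HSF WT TTR, and Acta2 96.2% and 95.9%. Myh11 went from exceeding 79.5% of genes in HSF WT TTR to 69.1% in HSF V30M TTR, and Rgs5 from 72.7% to 83.6%. Cnn1 was the least abundant, above 34.4% and 21.0% of genes in HSF V30M TTR and HSF WT TTR.

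The group names used throughout are those of the labels, with reservations from Ttr and Hsf1. Mouse Ttr, which is null in HSF V30M TTR by design, was at an FPKM of 6.10 in the group of that label and is listed at 0 in HSF WT TTR, where 3 fragments would have given 0.197. This goes against the label, and whether reads of the human transgene were counted for mouse Ttr is not given in the sources used here, so every direction given here, higher or lower, rests on the labels as given. Hsf1 was at 7.94 in HSF V30M TTR and 15.0 in HSF WT TTR, although both groups carry the same heterozygous deletion of it by design. Whether the groups differ in this deletion was not tested. The nerve itself was well represented, with the myelin gene Mbp at 3854 and 3441 in HSF V30M TTR and HSF WT TTR. The table gives no read totals, but in genes with a single transcript the low values fall on steps that stand for whole fragments, less sharply in HSF V30M TTR, whose values are given to 2 decimals. In HSF WT TTR, 97.7% of 1716 such values lay within 2% of a whole number of fragments. One fragment was worth 0.0386 and 0.0456 FPKM times kilobases in the libraries of HSF V30M TTR and 0.04815 and 0.0648 in those of HSF WT TTR, so the HSF V30M TTR libraries were the deeper ones. From these steps the number of fragments behind each value was estimated, together with a 95% Clopper-Pearson interval of each log2 ratio, taken without a pseudocount. The intervals cover counting error only and say nothing of the spread between mice.

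Alpha smooth muscle actin, the most used marker of mural cells, hardly differed. Acta2 (ENSMUSG00000035783) is annotated on the minus strand at chr19:34241090-34255590 (GRCm38, as all positions here), with 9 exons and 2035 bases in its longest coding transcript. It measured 147.2 FPKM in HSF V30M TTR and 137.2 in HSF WT TTR, a log2 ratio of 0.10. This stands for about 5926 to 6993 fragments in HSF V30M TTR and 3886 to 5232 in HSF WT TTR. The counting interval of the log2 ratio, from 0.04 to 0.16, ended well short of the 0.58 that a 1.5-fold difference makes.

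Actins are close relatives, and reads of one could be counted for another, so the start of the Acta2 coding sequence is shown beside those of the skeletal actin Acta1 and the cardiac actin Actc1, from the annotated mouse transcripts of GRCm38. Capitals mark the bases that differ from Acta2 in the first 60 coding bases, 17 in Acta1 and 14 in Actc1.
Acta2: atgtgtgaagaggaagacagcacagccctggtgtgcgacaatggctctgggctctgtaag
Acta1: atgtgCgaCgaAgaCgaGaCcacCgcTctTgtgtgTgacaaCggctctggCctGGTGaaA
Actc1: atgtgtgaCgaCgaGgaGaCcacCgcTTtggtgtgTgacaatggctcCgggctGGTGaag
Over the whole coding sequence, set end to end without gaps, Acta2 was identical to Acta1 in 85.4% of bases, to Actc1 in 82.6%, to the enteric smooth muscle actin Actg2 in 83.8%, to the cytoplasmic beta actin Actb in 83.0% and to gamma actin Actg1 in 81.7%. Of the 1986 stretches of 50 bases in the longest Acta2 transcript, 7 also occur in a transcript of another gene, the predicted gene Gm16385, and none in another actin gene. Acta1 was at 7.41 in HSF V30M TTR and 21.8 in HSF WT TTR, a log2 ratio of -1.44 beside the 0.10 of Acta2. Actb had 2512 and 2262, Actg1 250.7 and 293.4, and Actg2 1.43 and 2.21, with log2 ratios of 0.15, -0.23 and -0.40. Actc1 was at 0.32 and 0.505.

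Smooth muscle actin and its partners are known to be switched on by serum response factor with its coactivator myocardin, through a DNA element called the CArG box. RefSeq windows on GRCm38.p6, from 250 bases before to 50 after the annotated start, were searched on both strands for Acta2, Cnn1, Des, Mylk, Rgs5 and Notch3. Myh11, Tagln and Pdgfrb were not searched. The exact box was in none of the 6 windows, beside 1.63% of 32851 windows of all genes, and a box with 1 change in its outer 4 bases was in none either, beside 13.9%. With 1 change allowed in the inner 6 bases, a form added after the windows had been read, 9.98% of all windows matched, and among the 6 the Acta2 window did so at 2 places. They are shown with 10 bases on each side, the box in capitals, on the minus strand at chr19:34255438-34255467 and chr19:34255388-34255417.
Acta2 at -84 to -75: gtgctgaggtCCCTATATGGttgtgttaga
Acta2 at -34 to -25: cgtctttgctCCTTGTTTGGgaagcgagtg
Positions count from the RefSeq start. The longest transcript in the annotation used for the lengths starts upstream of both places, so there they lie in its first exon. A match is a description of the letters and does not show that a factor binds. Srf, the gene of serum response factor, was at 9.30 in HSF V30M TTR and 6.50 in HSF WT TTR, a log2 ratio of 0.46, and Myocd, the gene of myocardin, at 1.55 and 1.14, a log2 ratio of 0.26.

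Myh11, the smooth muscle myosin heavy chain and the most restricted of the contractile markers, was lower where Acta2 was not. Annotated on the minus strand at chr16:14194535-14291372, its longest coding transcript counts 41 exons and 6549 bases. The level was 17.0 FPKM in HSF V30M TTR and 26.3 in HSF WT TTR, a 1.54-fold difference and a log2 ratio of -0.60, just past the fold. About 2373 to 2800 fragments stood behind the value of HSF V30M TTR and 2576 to 3468 behind that of the shallower HSF WT TTR libraries, which put the counting interval of the log2 ratio at -0.71 to -0.55. That interval includes the 1.5-fold line, so by counting error alone it is undecided whether Myh11 is past the fold. The nonmuscle myosin heavy chains Myh9, Myh10 and Myh14 had 186.8, 25.7 and 22.8 in HSF V30M TTR and 191.4, 25.2 and 22.6 in HSF WT TTR, with log2 ratios between -0.03 and 0.03. Only 26 of the 6500 stretches of 50 bases of Myh11 also occur in another gene, all of them in Myh9.

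Tagln showed the largest difference of the 9 genes. The gene is annotated on the minus strand at chr9:45929619-45936058, with 5 exons. It reached 472.0 FPKM in HSF V30M TTR and 1102 in HSF WT TTR, a 2.33-fold difference and a log2 ratio of -1.22. Tagln made up 63.3% of the summed FPKM of the 9 genes in HSF V30M TTR and 81.4% in HSF WT TTR. The sum over all 9 genes was 745.4 in HSF V30M TTR and 1354 in HSF WT TTR, while the sum over the other 8 was 273.4 and 252.1. The Tagln relatives Tagln2, at 87.4 and 86.4, and the neuronal Tagln3, at 2.06 and 0.510 in HSF V30M TTR and HSF WT TTR, had log2 ratios of 0.02 and 1.02.

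Overlapping genes and transcripts of unequal length leave the level of Tagln uncertain. Its transcripts run from 369 to 1595 bases, and after the 199 bases that the estimate takes off for fragment length, the shortest keeps 170 bases and the longest 1396, so the same number of fragments gives an FPKM 8.21-fold apart depending on the transcript it is assigned to. The value of HSF V30M TTR stands for 14450 to 17052 fragments if all lay on the longest transcript and at least 1760 if all lay on the shortest, and that of HSF WT TTR for 23728 to 31950 or at least 2890. With either reading the counting interval stayed on 1 side of 0, from -1.25 to -1.19 and from -1.31 to -1.14, provided that both groups used the transcripts in the same proportion, which the table does not show. An antisense gene, Gm48529, covers 1241 bases or 62.4% of the exon bases of Tagln on the other strand, and Pcsk7 covers 108. Whether strand was kept in counting is not given in the sources used here, and without it reads of such genes cannot be told apart. Of 1546 stretches of 50 bases in the longest Tagln transcript, 747 also occur in other genes, on either strand, 688 of them in Gm48529. Gm48529, which the table lists under its clone name, was at 24.5 in HSF V30M TTR and 25.9 in HSF WT TTR, and Pcsk7 at 14.7 and 10.9. The table gives Tagln a locus shared with 7 other genes. The log2 ratios of these lay between -0.32 and 0.39, so none was lower to the extent of Tagln.

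**Figure D2:**
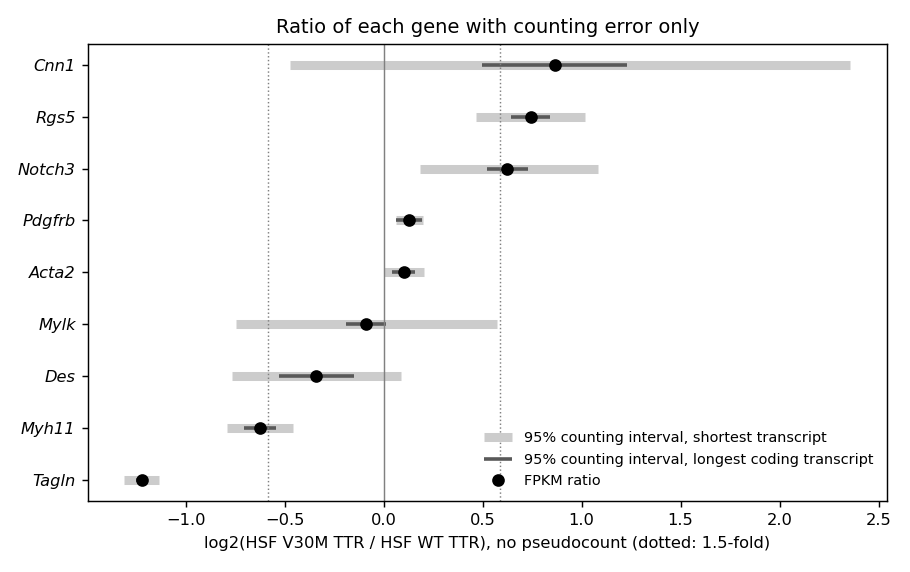
Log2 ratio of HSF V30M TTR over HSF WT TTR for each gene, without a pseudocount, as black points, with 95% intervals for counting error if all fragments lay on the longest coding transcript (dark bars) or on the shortest transcript (light bars), and dotted lines at 1.5-fold. The bars of Tagln and Myh11 lie wholly below 0, and those of Rgs5, Notch3, Pdgfrb and, barely, Acta2 lie wholly above it. The light bars of Cnn1, Mylk and Des cross 0, as does the dark bar of Mylk.

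Cnn1, the actin-binding protein of the most mature contractile cells, went the other way from Tagln. Its level, from the plus strand at chr9:22099216-22109630, was 4.74 FPKM in HSF V30M TTR and 2.61 in HSF WT TTR, a 1.82-fold difference and a log2 ratio of 0.67 with the pseudocount. It is the lowest of the 9 genes and rests on few fragments, 227 to 268 in HSF V30M TTR and 88 to 118 in HSF WT TTR on its longest transcript. The counting interval ran from 0.50 to 1.23, which includes the 1.5-fold line. On the shortest transcript of 370 bases only 18 and 7 fragments would stand behind the values. The interval there, from -0.47 to 2.36, included 0. Its relatives in other cells, Cnn2 and Cnn3, were at 54.5 and 193.9 in HSF V30M TTR and 46.5 and 188.2 in HSF WT TTR, log2 ratios of 0.23 and 0.04. None of the 2332 stretches of 50 bases of Cnn1 occurs in another gene.

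Mylk and Des were past the fold in neither direction. Mylk, on the plus strand at chr16:34745210-35002420, stood at 11.2 FPKM in HSF V30M TTR and 11.9 in HSF WT TTR, a log2 ratio of -0.08 with a counting interval from -0.19 to 0.01. The gene has 8 annotated transcripts from 393 to 7824 bases, and the gene level value does not tell the long kinase from the short forms. The striated muscle kinases Mylk2 and Mylk3, both with a mean FPKM under 1, were at 0.38 and 0.15 in HSF V30M TTR and 1.11 and 0.982 in HSF WT TTR. Their log2 ratios were -0.61 and -0.79, beside the -0.08 of Mylk. Des, on the plus strand at chr1:75360329-75368579, was at 7.81 and 9.90 FPKM in HSF V30M TTR and HSF WT TTR, a log2 ratio of -0.31. Its counting interval was -0.53 to -0.15 on the longest transcript and -0.77 to 0.09 on the shortest.

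Skeletal muscle also makes desmin, and most of its markers were lower in HSF V30M TTR by label. Of 14 skeletal muscle genes, 9 reached the mean FPKM of 1, and all 9 were lower past 1.5-fold, with log2 ratios from -2.22 to -0.72 and a summed FPKM of 51.4 in HSF V30M TTR and 194.0 in HSF WT TTR. The fast myosin heavy chain Myh4 was at 3.74 and 21.1, the creatine kinase Ckm at 8.97 and 43.8, and the light chain Mylpf at 7.55 and 33.9. Of the defining markers, Myh1, Myh2 and Myh7 were below 1 in both groups, as were Mb and Ryr1. Among these low genes, Myh1 and Mb were higher, with log2 ratios of 0.32 and 0.36. Myh2, Myh7 and Ryr1 were lower, with -0.08, -0.02 and -0.52. The part of muscle RNA in the Des value was not tested. Des was itself not past the fold, so leaving it out of the 9 genes could not change the count of 4.

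Among the pericyte and receptor genes, Pdgfrb differed little. Pdgfrb (ENSMUSG00000024620) is annotated at chr18:61045150-61085061, with 24 exons in its longest coding transcript. It measured 39.0 FPKM in HSF V30M TTR and 35.7 in HSF WT TTR, a log2 ratio of 0.12 with a counting interval from 0.06 to 0.20. Its annotated transcripts are of nearly equal length, from 5407 to 5423 bases, so of the 9 genes its value depends least on the transcript. The other PDGF receptor, Pdgfra, which marks fibroblasts, had 45.3 in HSF V30M TTR and 62.3 in HSF WT TTR, a log2 ratio of -0.45. Of the ligands, Pdgfb, which endothelial cells use to recruit pericytes, was at 9.27 and 6.72, a log2 ratio of 0.41, and Pdgfa at 31.6 and 38.9, one of -0.29. None of the 5 genes of this list, the 4 ligands and Pdgfra, was past 1.5-fold, and 4 of them were lower.

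Rgs5 differed on the side opposite to Tagln and Myh11. Transcribed from the plus strand at chr1:169655501-169695813, it reached 32.7 FPKM in HSF V30M TTR and 19.5 in HSF WT TTR, a 1.67-fold difference and a log2 ratio of 0.71. This stands for about 2791 to 3294 fragments against 1173 to 1580 on the longest transcript. The counting interval was 0.64 to 0.84 there and 0.47 to 1.02 on the shortest transcript of 723 bases, where it includes the 1.5-fold line. No stretch of 50 bases of Rgs5 is shared with another gene. Other regulators of the family differed in no common direction. Rgs3 was at 21.4 in HSF V30M TTR and 11.6 in HSF WT TTR, a log2 ratio of 0.83, while Rgs2, Rgs4 and Rgs16 had log2 ratios of 0.04, -0.05 and -0.16.

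Notch3 was close behind. Its level, from the minus strand at chr17:32120820-32166852, was 13.9 FPKM in HSF V30M TTR and 9.03 in HSF WT TTR, a 1.54-fold difference. Its log2 ratio was 0.57 with the pseudocount of 1, just short of the fold, and 0.62 without one, just past it. Behind these values stood about 2383 to 2812 and 1088 to 1466 fragments on the longest transcript of 8016 bases. The counting interval was 0.52 to 0.73 there and 0.18 to 1.08 on the shortest transcript, and both include the 1.5-fold line. Of its 7967 stretches of 50 bases, 399 are shared, 392 of them with the antisense gene Gm17276, which was at 0.40 and 0.359. Of 13 other Notch pathway genes, 8 were higher and 5 lower, with a median log2 ratio of 0.36, beside 0.00 over all genes. Past 1.5-fold were Hey1, a Notch target, at 6.91 and 4.19, Nrarp, a feedback inhibitor, at 2.52 and 1.18, and on the lower side the ligand Dll1 at 1.81 and 3.81. Other Notch targets of the list were lower, Hes1 at 9.05 and 13.0, Heyl with a log2 ratio of -0.24 and Hey2 at 0.91 and 1.83. None of the 3 was past the fold with the pseudocount of 1. For Hey2 the log2 ratio was -0.57 with that pseudocount, while the FPKM itself differed 2.02-fold. The targets thus shared no direction. Nrarp, Dll1, Heyl and Hey2 lie under the mean FPKM of 5 set for naming genes, and these targets were named after their values were seen. The other receptors Notch1, Notch2 and Notch4 had log2 ratios of 0.40, 0.17 and 0.36, and the ligand Jag1, at 13.2 in HSF V30M TTR and 15.6 in HSF WT TTR, one of -0.23.

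**Figure D3:**
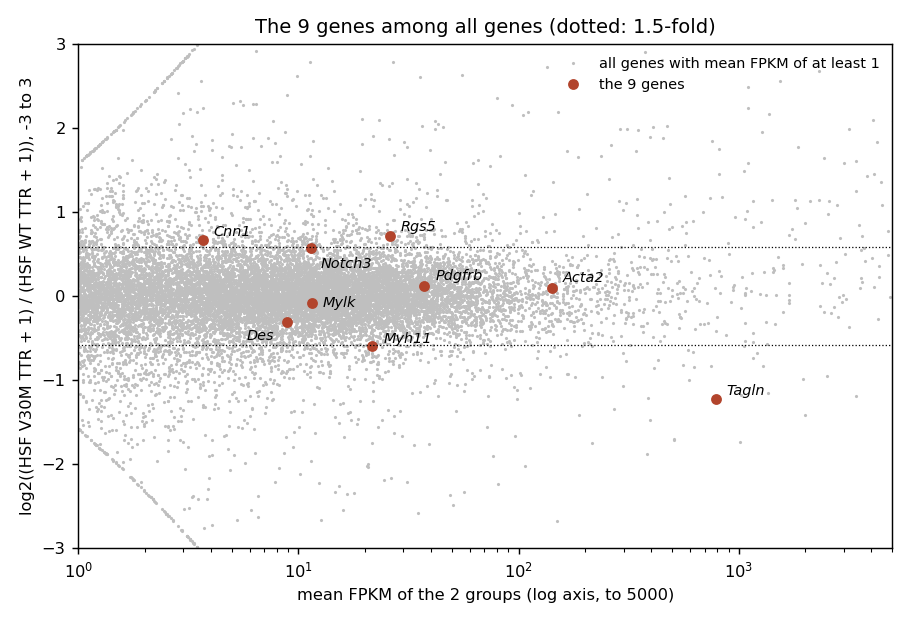
Log2((HSF V30M TTR + 1) / (HSF WT TTR + 1)) against the mean FPKM of both groups on a log axis, for all genes whose mean FPKM reached 1 (grey; a few lie outside the axes) and the 9 genes (red). Tagln lies far below the lower dotted line of 1.5-fold, Myh11 on it, Rgs5 and Cnn1 above the upper one, and Notch3 just under that.

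Because all 9 genes were measured in the same libraries, their proportions to each other within a group do not depend on the scaling of that group. Acta2 over Pdgfrb was 3.78 in HSF V30M TTR and 3.85 in HSF WT TTR, nearly the same. Tagln over Acta2 was 3.21 in HSF V30M TTR and 8.03 in HSF WT TTR, and Myh11 over Acta2 was 0.116 and 0.192, so that against actin they were lower 2.504-fold and 1.66-fold. Cnn1 over Acta2 was 0.0322 and 0.0190. Rgs5 over Pdgfrb was 0.838 in HSF V30M TTR and 0.547 in HSF WT TTR, and Notch3 over Pdgfrb was 0.357 and 0.253. Rgs5 over Myh11 was 1.92 in HSF V30M TTR and 0.742 in HSF WT TTR, 2.58-fold higher, and Notch3 over Myh11 was 0.816 and 0.343, 2.38-fold higher. Mylk over Myh11 was 0.656 and 0.452. These pairs were chosen with the values known.

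**Figure D4:**
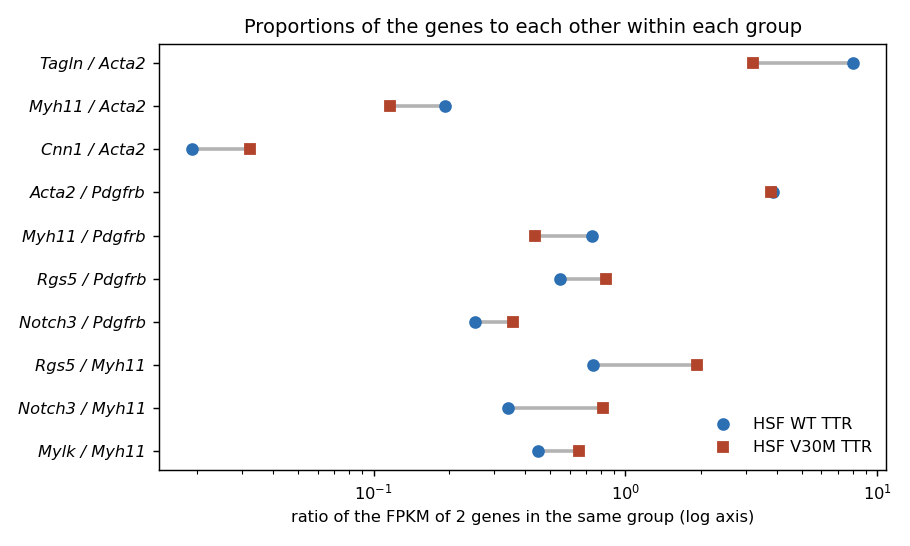
Ratio of the FPKM of 2 genes within the same group, on a log axis, circles for HSF WT TTR and squares for HSF V30M TTR. The symbols of Acta2 over Pdgfrb coincide, at 3.85 and 3.78, while Tagln over Acta2 lies lower and Rgs5 over Myh11 higher in HSF V30M TTR.

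The other genes of the contractile apparatus did not share the lower values of Tagln and Myh11 as a group. Of 28 such genes, 27 reached the mean FPKM of 1, of which 16 were lower and 11 higher, with a median log2 ratio of -0.15. Past 1.5-fold were 2 lower and 1 higher. Casq2, the calsequestrin of cardiac, slow and smooth muscle, was at 25.9 in HSF V30M TTR and 60.1 in HSF WT TTR, and Hspb6, a small heat shock protein of muscle, at 4.22 and 7.57. Myl6, the myosin light chain of smooth muscle and nonmuscle cells, was higher, at 353.1 and 210.8. The abundant smooth muscle light chain Myl9 was at 235.3 and 222.3 and the LIM protein Csrp1 at 333.0 and 320.0, log2 ratios of 0.08 and 0.06. The tropomyosins Tpm1, at 168.5 and 246.6, and Tpm2, at 91.9 and 137.8, had log2 ratios of -0.55 and -0.58, just short of the fold, and were named after their values were seen. Skeletal muscle also makes both tropomyosins and Hspb6, and most of its markers were lower, as given above. The part of muscle RNA in the values of Tpm1, Tpm2 and Hspb6 was not tested.

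The other pericyte markers did not share the higher values of Rgs5 and Notch3 as a group, but single markers lay on either side. Of 14, 7 were higher and 7 lower, with a median log2 ratio of 0.00. The proteoglycan Cspg4, known as NG2, was at 51.9 in HSF V30M TTR and 39.8 in HSF WT TTR, a log2 ratio of 0.38, and the potassium channel subunit Kcnj8 at 4.85 and 4.30, one of 0.14. Both were named as well known pericyte markers, outside the rule for named genes. The most abundant of the list, Art3, Mcam and Vtn, had log2 ratios of -0.17, -0.34 and -0.03. Enpep, glutamyl aminopeptidase, was lower past the fold, at 5.76 and 11.7, and Cox4i2, a low gene at 1.57 and 0.671, was higher past it. Not past the fold, Ndufa4l2 and Higd1b were higher, with log2 ratios of 0.53 and 0.23. Anpep and Abcc9 were lower, with -0.54 and -0.23.

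Of 14 transcription regulators of mural cells, 12 reached the mean FPKM of 1, with 8 higher, 4 lower and a median log2 ratio of 0.14. Mef2c, a regulator of muscle and endothelial genes, was lower past the fold, at 14.4 in HSF V30M TTR and 25.0 in HSF WT TTR. Tbx18, a marker of mural cells, was higher past it, at 6.05 and 3.63, and was named after its values were seen. Tead1, Klf4 and Foxs1, the most abundant, had log2 ratios of 0.13, 0.29 and 0.11. Of 23 genes that set smooth muscle tone, 21 reached that mean, with 8 higher, 13 lower and a median of -0.14. Past the fold on the higher side were Rgs3 and the adrenergic receptors Adra1b, at 3.77 and 1.44, and Adra2a, at 4.39 and 1.55. On the lower side were the endothelin receptor Ednrb, at 5.53 and 9.50, and the adrenergic receptor Adra1a, at 1.13 and 2.21. All 3 adrenergic receptors are low genes under the mean of 5, named after their values were seen.

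Of 20 paralogs of the 9 genes with a mean of at least 1, 13 were higher and 7 lower, with a median of 0.03, and only Tagln3 and Acta1 were past the fold.

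Markers of the neighbouring cell types are given beside these results. Of 12 endothelial genes, 9 were higher and 3 lower, with a median log2 ratio of 0.33 and a summed FPKM of 447.9 in HSF V30M TTR and 338.1 in HSF WT TTR. The 4 past 1.5-fold were all higher. They were Vwf at 52.5 and 27.3, Cldn5 at 100.2 and 57.9, Flt1 at 10.1 and 5.77 and Eng at 37.2 and 23.9. The 3 lower ones were Pecam1, at 44.9 and 56.5 with a log2 ratio of -0.33, Kdr with -0.07 and Tek with -0.02. Egfl7, the most abundant of the list, had a log2 ratio of 0.28. Thus 9 of the 12 endothelial genes, among them all 4 past the fold, lay on the same side as Rgs5 and Notch3, and 3 did not. Of 11 fibroblast genes, 4 were higher and 7 lower, with a median of -0.15. Past the fold were 2 lower ones, Pi16 at 42.4 and 83.0 and Dpt at 33.7 and 64.7. The most abundant fibroblast genes, Dcn, Col1a2 and Mfap5, had log2 ratios of 0.01, 0.13 and 0.14. All 9 adipocyte genes were lower, with a median of -0.41, and 3 of them were past the fold, Adipoq at 318.6 and 542.7 among them. The 12 Schwann cell genes had a median of 0.07, and 1 of them was past the fold, S100b at 328.4 and 201.0. Among perineurial genes, 7 reached the mean FPKM of 1, their median was 0.24, and 1 was past the fold, Crabp2 at 19.8 and 9.32. The most abundant of them, Itgb4, Tjp1 and Slc2a1, had log2 ratios of 0.27, -0.17 and 0.24. All 6 erythrocyte genes with a mean of at least 1 were higher, with a median of 1.40, the beta globin Hbb-bs at 110.7 and 37.1 among them. In summed FPKM from HSF V30M TTR to HSF WT TTR, the fibroblast list was at 2652 and 2764, the adipocyte list at 3466 and 4632, and the erythrocyte list at 291.5 and 100.6. The part of any of these cell types in the values of the 9 genes was not tested.

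**Figure D5:**
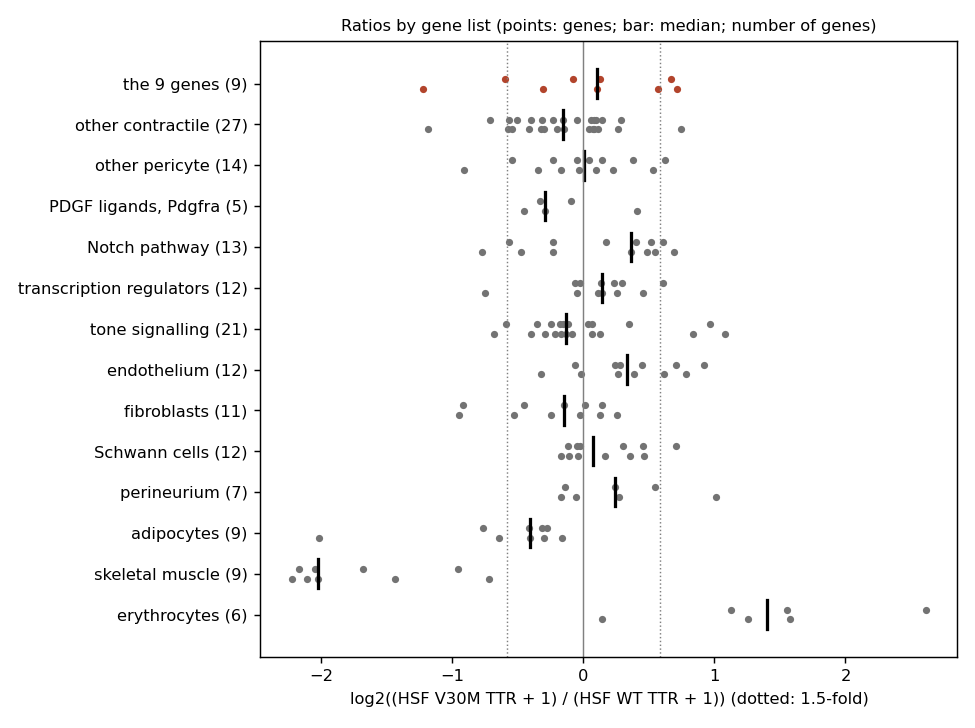
Log2((HSF V30M TTR + 1) / (HSF WT TTR + 1)) of each gene whose mean FPKM reached 1, by list, with the number of genes in brackets, a black bar at the median and dotted lines at 1.5-fold. The 9 genes (red) spread from -1.22 to 0.71 around a median of 0.10, while all skeletal muscle genes lie to the left of the lower dotted line and the erythrocyte genes to the right of 0.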

How the data were processed

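Sciatic nerve RNA of HSF V30M TTR and HSF WT TTR mice had been sequenced with Ion Torrent libraries. Each group holds 2 mice by the labels, while 4 is the number stated in the methods, with no word on whether it counts 1 group. Reads were aligned for the authors to GRCm38, the C57BL/6J genome, although the mice are of strain 129. STAR, Cufflinks and Cuffdiff are named in the submitters' processing notes, and their versions and options are not given in the sources used here. The FPKM values in the deposited table are the estimates of the authors' Cuffdiff run, 1 per gene and group, with decimal commas. The table's other columns hold the authors' fold changes, test statistics, p-values and q-values, which were not used for any result.

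From the FPKM, ratios were taken as log2((HSF V30M TTR + 1) / (HSF WT TTR + 1)) for genes whose mean FPKM reached 1. A fold of 1.5 was used to describe differences, and 23 genes with too many alignments were left out. The planned test on values per mouse could not be made. Fragments were estimated from the worth of 1 fragment on single-transcript genes that share no locus, after subtracting 199 bases from the length, using transcripts and positions of GENCODE M21 (GRCm38), which holds 50346 of the gene identifiers. The step was tested on simulated data with unrounded values and depths like those of HSF WT TTR. The rounded values of HSF V30M TTR were not simulated. A shared stretch is an exact match of 50 bases on either strand. Named genes were the 9 genes, up to 4 genes per list past the fold with a mean FPKM of at least 5, the up to 3 most abundant genes of a list, Myocd, Srf, Pdgfb, Jag1 and the actins. Not all genes that this rule allows are named for every list. Other genes named are relatives or neighbours of the 9 genes, or were singled out after their values were seen. The 9 genes, the lists and the rules were chosen with earlier results of these data known. Alternatives were pseudocounts of 0.1 and none, a minimum mean of 5 and none, median-of-ratios scaling, a fold of 2, and the 9 genes without Des or Pdgfrb. Scripts ran in Python 3.11.15 with scipy 1.17.1, pandas 2.3.3 and numpy 2.4.6, and figures were drawn with matplotlib 3.10.9.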

Additional observations from a re-analysis of the deposited data

How the results depend on the processing

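No paired analysis was possible because values per mouse are not in the table, which also means that no replicate could be omitted and no fit across genes was made. Each of the 9 genes kept its direction under both other pseudocounts and under median-of-ratios scaling, whose factors were 1.002 and 0.998, and moved by less than its counting interval in all 27 of these comparisons. The number of the 9 genes past the fold was between 3 and 5 under the other settings run and 1 with a fold of 2. Notch3 was past 1.5-fold with a pseudocount of 0.1 or none (log2 ratios of 0.62 and 0.62) and not with median-of-ratios scaling (0.565). The median of the 9 ratios went from 0.10 to 0.0093 with a minimum mean of 5, which drops Cnn1, and likewise without Pdgfrb. Over all genes, 2603 were past the fold, 1378 with a minimum mean of 5 and 1237 with a fold of 2, both stricter by construction. Of 70 medians of the 14 other lists under alternatives, 62 moved by less than 0.1 and 8 by more, in the erythrocyte, skeletal muscle and perineurium lists, none of them changing sign, while the median of the other pericyte markers, near 0, lay between -0.03 and 0.01. Depth limits Cnn1 and the adrenergic receptors, and no setting here measures the spread between mice.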
